A study of Mus musculus with 15 samples.

Results

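Histone deacetylases (HDACs) are the enzymes that remove acetyl groups from lysines of histones and other proteins. The 10 genes Hdac1 to Hdac10 were taken by symbol, and every probe set annotated to 1 of them alone was kept. Hdac11, also read on the array, was not among them and was followed in a list of other deacetylases. The choice of Hdac1 to Hdac10 was kept throughout. These 10 genes had 17 probe sets, out of 45037 probe sets and 18193 named genes in the series. Class I holds Hdac1, Hdac2, Hdac3 and Hdac8, class IIa holds Hdac4, Hdac5, Hdac7 and Hdac9, and class IIb holds Hdac6 and Hdac10.

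The RNA came from chondrocytes dissected from the hind limb cartilage of CD1 mice at embryonic day 15.5 and grown in monolayer. The cultures received Trichostatin A, an HDAC inhibitor, LY294002, an inhibitor of the lipid kinase PI3K, UO126, an inhibitor of the kinase MEK upstream of ERK, SB202190, an inhibitor of p38 MAP kinase that the series text lists among MEK/ERK pathway inhibitors, or DMSO, the solvent used as vehicle. Each treatment had 3 arrays (Affymetrix MOE 430 2.0), called biological replicates in the series text. For the length of treatment, the samples are labelled 24 h and the series text says 2 h. The published methods give 24 h for the DMSO and LY294002 cultures. All cultures were wild-type cells of the same source, the array measures RNA and not enzyme activity, and fewer cells with a transcript cannot be told apart from less transcript per cell.

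Of class I, the products of Hdac1, Hdac2 and Hdac3 sit in the nucleus as catalytic subunits of corepressor complexes. HDACs of class IIa have little deacetylase activity of their own and work as signal-dependent repressors. When kinases phosphorylate them they are bound by 14-3-3 proteins and leave the nucleus, which frees the transcription factors MEF2 and RUNX. In mouse cartilage Hdac4 is known as a brake on chondrocyte hypertrophy. Trichostatin A blocks the zinc-dependent catalytic site, and class IIa enzymes are much less sensitive to it than classes I and IIb.

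The values are log2 signals, so that a difference of 1 is a doubling. A probe set was tested in a comparison when the mean of at least 1 of the compared treatments was 5.64 or more, the log2 of a signal of 50. The tests were made with limma on all 15 arrays at once, so that every treatment added to the estimate of the spread, and adjusted p values are two-sided Benjamini-Hochberg values over all probe sets tested in that comparison. A call means an adjusted p under 0.05. Standard errors had a median of 0.10 over all probe sets. With 3 arrays in each group, no p below 0.1 can come from exact permutation. Signals of different probe sets were not set against each other.

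In Trichostatin A, Hdac1, Hdac5 and Hdac6 were higher than in DMSO and Hdac7, Hdac8 and Hdac10 were lower, with changes between 1.25-fold and 1.51-fold. Class IIa and class IIb each held genes of both directions. In class I the single lower gene was Hdac8, whose Trichostatin A mean of 5.59 was under the filter and whose call was lost in 16 of 24 alternatives. Of 15 HDAC probe sets tested, 3 were higher, 4 were lower and 8 did not pass, so that 46.7% were called. Over all 34902 probe sets tested 43.6% were called, 23.0% higher and 20.6% lower, so the number of calls among the HDACs was near that of the array as a whole. By gene, with the brightest probe set standing for each, 6 of 10 HDACs were called, or 60.0%, against 49.7% of all genes. The median log2 difference of the 15 probe sets was -0.03, and that of all probe sets was -0.06. In size, the called HDAC changes were above the median of all probe sets tested (0.23) but not among the largest of this treatment. The log2 difference of Hdac7 was larger in size than those of 80.6% of all probe sets tested, that of Hdac6 than 79.5%, that of Hdac1 than 79.2% and that of Hdac5 than 77.3%.

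**Figure D1:**
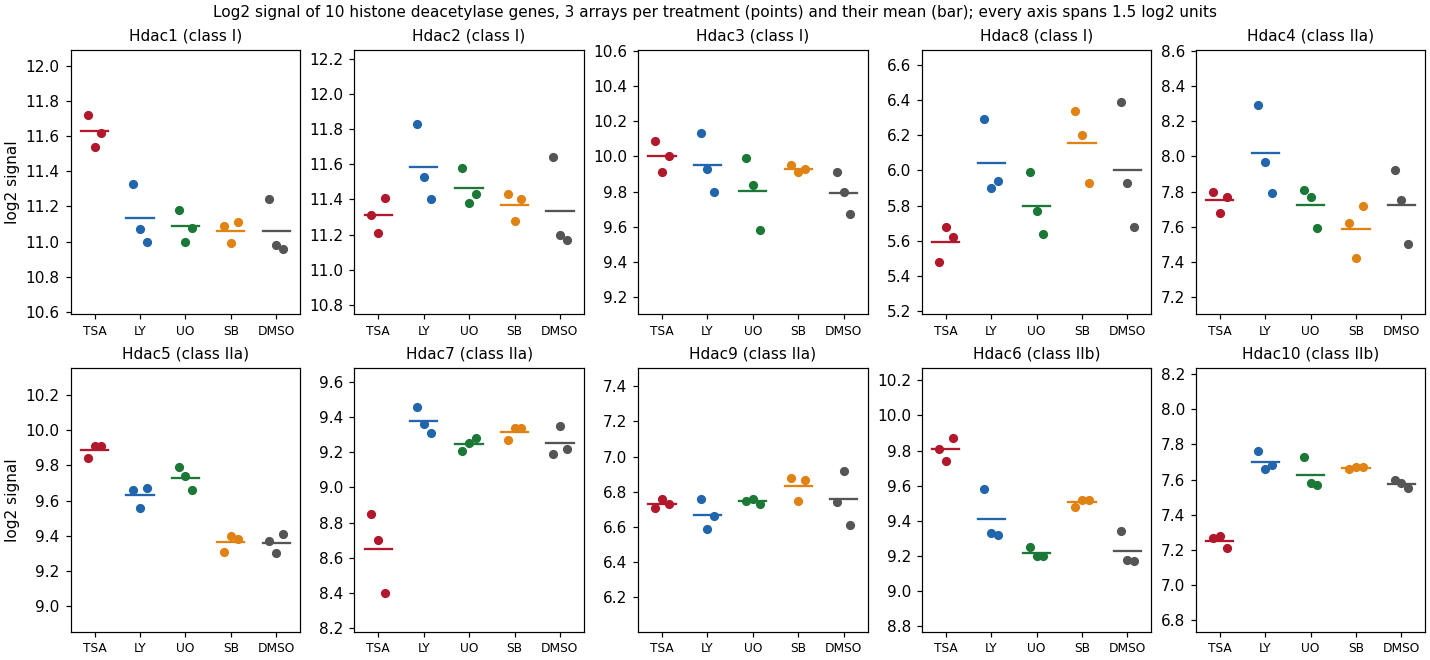
Log2 signal of the 10 HDAC genes on each array, with the treatments on the x axis (TSA, Trichostatin A; LY, LY294002; UO, UO126; SB, SB202190; DMSO) and the log2 signal of the brightest probe set on the y axis. Points are arrays, bars are means of 3 arrays, and every axis spans 1.5 log2 units from a different start. The Trichostatin A arrays lie above all others for Hdac1, Hdac5 and Hdac6 and below all others for Hdac7 and Hdac10.

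Hdac5, a class IIa member that holds back MEF2 in muscle and other tissues, was the HDAC whose level differed from DMSO in most treatments. Its single probe set (1415743_at) read 9.84, 9.91 and 9.91 in Trichostatin A, 9.66, 9.56 and 9.67 in LY294002, 9.79, 9.74 and 9.66 in UO126, 9.31, 9.40 and 9.38 in SB202190, and 9.37, 9.30 and 9.41 in DMSO. The Trichostatin A, LY294002 and UO126 arrays all lay above every DMSO array, while the SB202190 arrays lay within the range of the DMSO arrays. In Trichostatin A the log2 difference from DMSO was 0.53 (standard error 0.07, adjusted p = 1.44e-05 from limma), a 1.44-fold increase, and it passed under every alternative tried. The 250 bases before its RefSeq start (chr11:102230173-102230422, minus strand, GRCm38.p6) are printed because Hdac5 was called in 3 of the 4 comparisons with DMSO. Capitals mark matches, on either strand, to a GC box (GGGCGG). They also mark those to the CCAAT box, whose name spells its letters. The MEF2 motif, in capitals as well, was searched in a loose form, CTANNNNTAG, where N is any base and not A or T alone.
Hdac5: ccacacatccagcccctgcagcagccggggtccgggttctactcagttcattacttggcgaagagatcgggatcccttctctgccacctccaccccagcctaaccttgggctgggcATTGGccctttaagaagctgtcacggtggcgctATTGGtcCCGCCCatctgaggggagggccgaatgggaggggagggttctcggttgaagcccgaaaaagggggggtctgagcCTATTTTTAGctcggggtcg
The window holds 1 GC box, 2 CCAAT boxes and 1 MEF2 match (CTATTTTTAG) that begins 20 bases before the start. A MEF2 match in this loose form was found in 3.2% of the 32851 promoter windows of this length in RefSeq. A GC box was found in 32.7% of them and a CCAAT box in 33.8%.

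Hdac7, a class IIa member known for its roles in thymocytes and in vessel walls of the mouse, moved the other way in Trichostatin A. The brighter of its 2 probe sets (1420813_at) read 8.85, 8.70 and 8.40 in Trichostatin A, against 9.19, 9.35 and 9.22 in DMSO. The second (1420812_at) read 7.63, 7.79 and 7.51 in Trichostatin A, against 8.20, 8.07 and 8.19 in DMSO. On both, all Trichostatin A arrays were below all DMSO arrays, and the signals of the 2 probe sets over the 15 arrays had a Pearson r of 0.934. The log2 differences were -0.60 (standard error 0.10, adjusted p = 9.45e-05 from limma), a 1.51-fold decrease, and -0.51 (standard error 0.08, adjusted p = 8.61e-05 from limma), a 1.43-fold decrease. Both passed under every alternative tried. RefSeq lists 4 starts for Hdac7. The window of the second, the single one of the 4 with a match to any of the 3 motifs, is printed with its GC box in capitals for comparison with that of Hdac5 (chr15:97831496-97831745, minus strand, GRCm38.p6).
Hdac7: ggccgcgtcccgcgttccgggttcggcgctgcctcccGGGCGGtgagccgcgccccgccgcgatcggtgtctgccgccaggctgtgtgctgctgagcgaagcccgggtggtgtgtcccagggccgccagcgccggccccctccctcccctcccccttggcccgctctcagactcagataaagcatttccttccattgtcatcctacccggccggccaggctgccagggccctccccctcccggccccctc
Which of these starts the chondrocytes used was not measured.

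Hdac4, the class IIa member studied most in growth plate cartilage, was read by 3 probe sets that did not give 1 picture in Trichostatin A. The brightest over all arrays (1436758_at) read 7.80, 7.68 and 7.77 in Trichostatin A, against 7.92, 7.75 and 7.50 in DMSO, and the groups overlapped. Probe set 1454693_at read 7.73, 7.70 and 8.10 in Trichostatin A, against 7.75, 7.50 and 7.55 in DMSO, where 1 Trichostatin A array stood above the rest. Probe set 1447566_at read 7.60, 7.61 and 7.74 in Trichostatin A, against 7.90, 7.75 and 7.84 in DMSO, with every Trichostatin A array lower. None passed in limma, with log2 differences of 0.03 (standard error 0.13, adjusted p = 0.876), 0.25 (standard error 0.11, adjusted p = 0.0777) and -0.18 (standard error 0.08, adjusted p = 0.0797). After quantile normalization, 1454693_at passed as higher (adjusted p = 0.0471 from limma) and 1447566_at as lower (adjusted p = 0.0445 from limma), so no direction can be given for Hdac4 in Trichostatin A. 1454693_at was also called without DMSO replicate 1 (adjusted p = 0.0330) and without Trichostatin A replicate 2 (adjusted p = 0.0417). The correlations among the 3 probe sets over 15 arrays were 0.333, 0.655 and 0.388 (Pearson r).

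Hdac9, the remaining class IIa gene, gave no call. Its brighter probe set (1421306_a_at), which matches several transcripts of the gene, read 6.71, 6.76 and 6.73 in Trichostatin A, against 6.74, 6.92 and 6.61 in DMSO (log2 difference -0.03, 95% interval -0.21 to 0.15, adjusted p = 0.823 from limma). The other probe set (1434572_at) had means below the filter in every treatment and was not tested. It read 5.15, 5.50 and 5.61 in Trichostatin A, against 4.96, 4.49 and 4.36 in DMSO, and the 2 probe sets were not correlated over the 15 arrays (Pearson r -0.0733).

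Among class I, Hdac1, a catalytic subunit of the SIN3, NuRD and CoREST complexes, was the member that rose in Trichostatin A. Its probe set (1448246_at) read 11.72, 11.54 and 11.62 in Trichostatin A, 11.33, 11.07 and 11.00 in LY294002, 11.18, 11.00 and 11.08 in UO126, 11.09, 10.99 and 11.11 in SB202190, and 11.24, 10.98 and 10.96 in DMSO. Every Trichostatin A array was above each of the other 12, and the other 4 treatments overlapped. The log2 difference from DMSO was 0.57 (standard error 0.10, adjusted p = 1.94e-04 from limma), a 1.48-fold increase that passed under every alternative tried. RefSeq also lists a pseudogene, Hdac1-ps, with which signal could be shared.

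Hdac2, the close paralog of Hdac1 in the same complexes, did not pass in Trichostatin A on any of its 3 probe sets. The brightest (1445684_s_at) read 11.31, 11.21 and 11.41 in Trichostatin A, against 11.64, 11.20 and 11.17 in DMSO (log2 difference -0.02, 95% interval -0.29 to 0.24). The others had log2 differences of -0.06 (1449080_at) and -0.15 (1439704_at), and the adjusted p from limma lay between 0.259 and 0.890 over the 3. Hdac3, the catalytic subunit of the NCoR complex (1426437_s_at), read between 9.91 and 10.09 in Trichostatin A, against 9.67 to 9.91 in DMSO. The groups met at 9.91, and the log2 difference of 0.21 (standard error 0.11) did not pass (adjusted p = 0.141 from limma).

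Hdac8, a class I enzyme known for deacetylating the cohesin subunit SMC3, was dim. It read 5.48, 5.68 and 5.62 in Trichostatin A, 6.29, 5.90 and 5.94 in LY294002, 5.99, 5.77 and 5.64 in UO126, 6.34, 6.20 and 5.93 in SB202190, and 6.39, 5.93 and 5.68 in DMSO (1428933_at). The Trichostatin A mean of 5.59 was under the filter level of 5.64, and the lowest DMSO array was level with the highest Trichostatin A array. The log2 difference of -0.41 (standard error 0.16) passed narrowly (adjusted p = 0.0479 from limma). It lost the call in 16 of 24 alternatives. Without DMSO replicate 1, the highest array, it was -0.21 (adjusted p = 0.234 from limma), and without any 1 of the Trichostatin A arrays or DMSO replicate 2 the adjusted p lay between 0.0594 and 0.147.

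Class IIb showed a rise and a fall. Hdac6, a mostly cytoplasmic enzyme that deacetylates tubulin (1448928_at), read 9.81, 9.74 and 9.87 in Trichostatin A, 9.58, 9.33 and 9.32 in LY294002, 9.25, 9.20 and 9.20 in UO126, 9.48, 9.52 and 9.52 in SB202190, and 9.34, 9.18 and 9.17 in DMSO. All Trichostatin A arrays were above the other 12, and the SB202190 arrays lay between them and DMSO. The log2 difference between Trichostatin A and DMSO was 0.58 (standard error 0.08, adjusted p = 2.64e-05 from limma), a 1.49-fold increase. Hdac10, a deacetylase of acetylated polyamines (1454775_at), read 7.27, 7.28 and 7.21 in Trichostatin A, against 7.60, 7.58 and 7.55 in DMSO. All Trichostatin A arrays were lower, with a log2 difference of -0.32 (standard error 0.07, adjusted p = 0.00157 from limma), a 1.25-fold decrease. Both calls held under every alternative tried. The second Hdac10 probe set (1441832_at) read between 3.71 and 4.55 on the 15 arrays, below the filter, and was not tested.

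Hdac4 and Hdac6 had the windows with the most motif matches among the 11 windows of the 7 HDAC genes that could be matched, and are printed for that reason. Hdac4 lies at chr1:92180342-92180591 and Hdac6 at chrX:7947890-7948139, both on the minus strand of GRCm38.p6, and capitals again mark the motifs.
Hdac4: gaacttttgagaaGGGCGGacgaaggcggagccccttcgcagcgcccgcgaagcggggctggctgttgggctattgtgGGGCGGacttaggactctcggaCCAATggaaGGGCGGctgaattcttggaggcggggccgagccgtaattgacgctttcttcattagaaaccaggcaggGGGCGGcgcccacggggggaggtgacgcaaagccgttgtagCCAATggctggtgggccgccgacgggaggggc
Hdac6: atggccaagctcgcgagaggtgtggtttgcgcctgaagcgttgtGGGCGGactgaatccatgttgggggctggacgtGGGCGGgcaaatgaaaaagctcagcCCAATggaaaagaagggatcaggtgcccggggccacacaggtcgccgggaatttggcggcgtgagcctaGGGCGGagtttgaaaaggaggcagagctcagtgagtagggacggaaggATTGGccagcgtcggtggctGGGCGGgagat
Each of these windows holds 4 GC boxes and 2 CCAAT boxes. In Trichostatin A Hdac4 did not pass and Hdac6 rose, and a link between motifs and levels was not tested. Over the 11 windows a GC box was found in 5, a CCAAT box in 4 and a match to the loose MEF2 form in 3. These 3 were in Hdac2, Hdac5 and 1 of 2 windows of Hdac9. The N bases were all T in Hdac5 but held C and G in Hdac2 (CTACCCGTAG) and Hdac9 (CTAGCTTTAG). A match describes the letters and not a bound site. The windows of Hdac1, Hdac3 and Hdac10 were not analysed here.

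**Figure D2:**
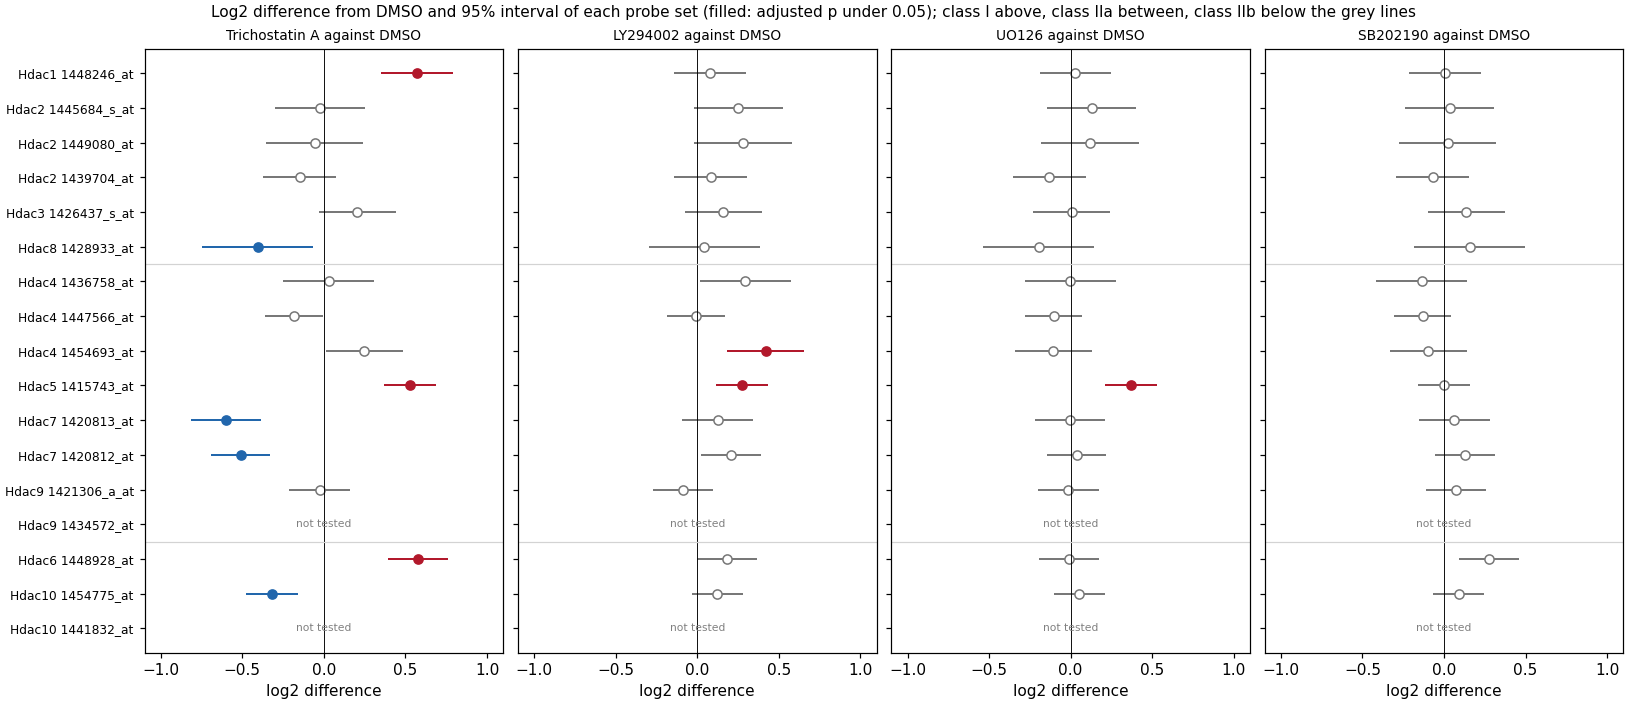
Log2 difference from DMSO (x axis) of each of the 17 HDAC probe sets (y axis, grouped into class I, class IIa and class IIb from top to bottom) in Trichostatin A, LY294002, UO126 and SB202190. Points are differences of means of 3 arrays, lines are 95% intervals, and filled points passed an adjusted p of 0.05. Of 15 tested probe sets 7 passed in Trichostatin A, 2 in LY294002, 1 in UO126 and 0 in SB202190.

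The kinase inhibitors were compared with the same 3 DMSO arrays, so these comparisons are not independent of each other or of the one above. In LY294002, 2 of 15 HDAC probe sets were higher, none was lower and 13 did not pass, or 13.3% called, against 8.62% of all 34562 probe sets tested (6.83% higher and 1.78% lower). Both were of class IIa, where 2 of 7 tested probe sets passed, while 0 of 6 in class I and 0 of 2 in class IIb did. At an unadjusted p under 0.05 there were 4 probe sets of class IIa, 1 of class IIb and 0 of class I. Those of class IIa were of Hdac4, with 2 probe sets, Hdac5 and Hdac7. In limma, Hdac2 of class I missed narrowly on 1445684_s_at (log2 difference 0.25, unadjusted p = 0.0628) and 1449080_at (0.28, unadjusted p = 0.0589). The other class I probe sets had an unadjusted p of 0.163 or more. The share of all probe sets at this level was not counted, so these counts do not set the classes apart. The median log2 difference of the 15 probe sets was 0.16, against -0.02 over all probe sets. Without DMSO replicate 1, Hdac2 passed as well, with log2 differences of 0.40 (1445684_s_at, adjusted p = 0.0289 from limma) and 0.45 (1449080_at, adjusted p = 0.0244 from limma).

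Of the Hdac4 probe sets, 1454693_at read 8.14, 7.92 and 7.99 in LY294002, against 7.75, 7.50 and 7.55 in DMSO. Every LY294002 array was above every DMSO array, and the log2 difference was 0.42 (standard error 0.11, adjusted p = 0.0243 from limma), a 1.34-fold increase that was larger than the differences of 93.6% of all probe sets tested. The brightest Hdac4 probe set, 1436758_at, read 8.29, 7.97 and 7.79 in LY294002, against 7.92, 7.75 and 7.50 in DMSO, with overlap and a log2 difference of 0.29 (standard error 0.13, adjusted p = 0.174 from limma). The third, 1447566_at, read 7.90, 7.73 and 7.84 in LY294002, against 7.90, 7.75 and 7.84 in DMSO, a log2 difference of -0.01 with a 95% interval of -0.18 to 0.16. A rise was therefore called on 1 of the 3 Hdac4 probe sets. The brightest, 1436758_at, leaned the same way, with a 95% interval of 0.02 to 0.57 that lay above 0. The call of 1454693_at was lost in 7 of 26 alternatives, where its log2 difference stayed between 0.36 and 0.43. When 1 array was dropped, the adjusted p from limma became 0.116 for replicate 1 of LY294002 and 0.111 and 0.0914 for replicates 2 and 3 of DMSO.

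Hdac5 was higher in LY294002 than in DMSO by 0.27 (standard error 0.07, adjusted p = 0.0287 from limma), a 1.21-fold increase. Its call was lost in 9 of 26 alternatives. After quantile normalization the difference was 0.16 (adjusted p = 0.235 from limma), and dropping replicate 1 or 3 of LY294002 gave an adjusted p of 0.0986 or 0.0731, while dropping replicate 2 or 3 of DMSO gave 0.123 or 0.0557. The other class IIa genes did not pass. Hdac7 had log2 differences of 0.12 (1420813_at) and 0.21 (1420812_at), and on the second every LY294002 array (8.43, 8.37 and 8.27) was above the DMSO arrays (adjusted p = 0.143 from limma). Hdac9 (1421306_a_at) had a log2 difference of -0.09 (95% interval -0.27 to 0.09).

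In UO126, Hdac5 was the single HDAC called, 1 of 15 probe sets or 6.67%, against 1.93% of all 34612 tested, of which 1.14% were called higher. It was higher than in DMSO by 0.37 (standard error 0.07, adjusted p = 0.0107 from limma), a 1.29-fold increase. The call was lost in 6 of 26 alternatives, with an adjusted p from limma of 0.0574 without DMSO replicate 2 and 0.0592 without UO126 replicate 1, while the difference stayed between 0.33 and 0.43 over all of them. At an unadjusted p under 0.05 Hdac5 was also the single HDAC probe set, and the share of all probe sets at this level was not counted. The log2 differences of the other 14 HDAC probe sets lay between -0.20, for Hdac8, and 0.13, for Hdac2.

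In SB202190, limma called 0 of 15 HDAC probe sets, against 1.94% of all 34539 tested. At an unadjusted p under 0.05, where the share of all probe sets was not counted, there was 1 HDAC probe set. This was Hdac6, which was higher by 0.28 (standard error 0.08, 95% interval 0.10 to 0.46, adjusted p = 0.117 from limma), with every SB202190 array above every DMSO array. It passed with the replicate number as a block (adjusted p = 0.0409 from limma) and after quantile normalization (adjusted p = 0.0198 from limma). Hdac5, higher in the other 3 treatments, had a log2 difference of 0.00 (95% interval -0.15 to 0.16).

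**Figure D3:**
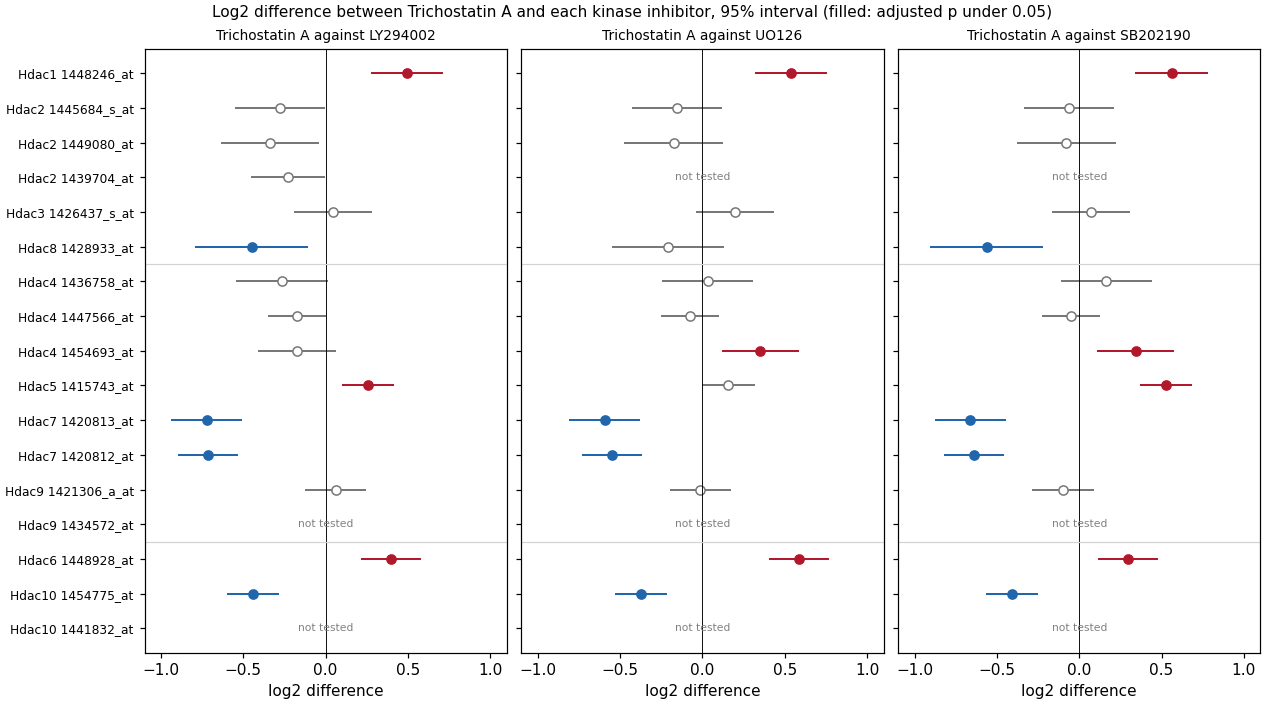
Log2 difference of Trichostatin A from each kinase inhibitor (x axis) for the 17 HDAC probe sets (y axis, class I, class IIa and class IIb from top to bottom). Points are differences of means of 3 arrays, lines are 95% intervals, and filled points passed an adjusted p of 0.05. Hdac1 and Hdac6 are filled to the right and Hdac7 and Hdac10 to the left in all 3 panels.

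Trichostatin A was also compared directly with each kinase inhibitor, which does not use the DMSO arrays for the difference. These comparisons share the Trichostatin A arrays with each other and with the comparison to DMSO, so they are not independent. Against LY294002, 7 of 15 HDAC probe sets were called, 3 higher and 4 lower, and of all probe sets 40.0% were called, 19.7% higher and 20.3% lower. Against UO126 it was 6 of 14, 3 higher and 3 lower, with 42.6% of all called, 22.5% higher and 20.1% lower. Against SB202190 it was 8 of 14, 4 higher and 4 lower, with 38.3% of all called, 21.0% higher and 17.3% lower. Hdac1 was higher in Trichostatin A by 0.49 than in LY294002, by 0.54 than in UO126 and by 0.56 than in SB202190 (standard error 0.10 each, adjusted p from limma between 2.45e-04 and 7.54e-04). Hdac6 was higher by 0.40 than in LY294002, 0.59 than in UO126 and 0.30 than in SB202190, and Hdac10 was lower, with log2 differences of -0.44, -0.37 and -0.41 in the same order. The Hdac6 call against LY294002 was lost without replicate number 3 of every treatment (adjusted p = 0.0565), and that against SB202190 without number 2 (adjusted p = 0.0568) or number 3 (adjusted p = 0.111). Hdac7 was lower on both probe sets, with log2 differences of -0.72 and -0.72 against LY294002, -0.59 and -0.55 against UO126, and -0.66 and -0.64 against SB202190.

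The remaining calls of the direct comparisons were in Hdac5, Hdac4 and Hdac8. Hdac5 was higher in Trichostatin A than in LY294002 by 0.26 (standard error 0.07, adjusted p = 0.00900 from limma) and than in SB202190 by 0.53 (adjusted p = 1.64e-05 from limma). The call against LY294002 was lost with the arrays of these 2 treatments alone (adjusted p = 0.0522) and without replicate number 2 or 3 of every treatment (adjusted p = 0.157 and 0.0738). Against UO126 the difference of 0.16 did not pass (95% interval 0.00 to 0.31, adjusted p = 0.0931 from limma), although all Trichostatin A arrays were above all UO126 arrays. Hdac4 (1454693_at) was higher in Trichostatin A than in UO126 by 0.35 (adjusted p = 0.0143 from limma) and than in SB202190 by 0.34 (adjusted p = 0.0186 from limma). Without Trichostatin A replicate 3, its highest array there, these were 0.22 (adjusted p = 0.0960) and 0.21 (adjusted p = 0.122). The other Hdac4 probe sets did not pass, with log2 differences against UO126 of 0.03 (1436758_at) and -0.08 (1447566_at), and against SB202190 of 0.16 and -0.05 in the same order. The calls of 1454693_at were also lost without UO126 replicate 2 (adjusted p = 0.0708) and without SB202190 replicate 2 (adjusted p = 0.0546). Against LY294002 it was lower by a log2 difference of -0.17 that did not pass (95% interval -0.40 to 0.06) but did without Trichostatin A replicate 3 (-0.30, adjusted p = 0.0273). Hdac8 was lower in Trichostatin A than in LY294002 (log2 difference -0.45, adjusted p = 0.0319 from limma) and SB202190 (-0.56, adjusted p = 0.00890 from limma), and its difference from UO126 of -0.21 did not pass (adjusted p = 0.310). The first of these calls was lost without LY294002 replicate 1 (adjusted p = 0.149), Trichostatin A replicate 1 (adjusted p = 0.111) or Trichostatin A replicate 3 (adjusted p = 0.0604), and the second without SB202190 replicate 1 (adjusted p = 0.0508). The first was also lost without replicate number 1 or 2 of every treatment (adjusted p = 0.0972 and 0.0957 from limma), and the second without number 2 (adjusted p = 0.0862 from limma). The Trichostatin A mean of Hdac8, 5.59, was under the filter, so Hdac8 was tested here only through the mean of the kinase inhibitor.

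The complexes and partners through which HDACs act were followed on lists of their genes, with 1 probe set per gene. Of all genes tested in Trichostatin A against DMSO, 27.0% were called higher and 22.7% lower, and the counts of each list stand against these shares. In Trichostatin A the SIN3 complex, the scaffold that carries Hdac1 and Hdac2, had 8 of 12 tested genes higher, 1 lower and 3 not past the threshold, with a median log2 difference of 0.45. The largest changes were in Arid4b (1.08, standard error 0.12), Sap30 (0.79, standard error 0.11) and Sap30l (0.77, standard error 0.09), subunits of the complex, and Brms1l, also a subunit, was the lower one (-0.57). Of 11 genes of the NuRD complex, which couples Hdac1 and Hdac2 to nucleosome remodelling, 2 were higher, 2 were lower and 7 did not pass (median -0.03). The lower ones were the remodelling ATPase gene Chd3 (-1.34, standard error 0.11) and Mbd3 (-1.18, standard error 0.10), and Mbd2, whose product takes the place of MBD3 in a part of the complexes, was higher (0.62, standard error 0.12). Gatad2a, a further NuRD subunit, was the other higher gene (0.30).

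Of 8 tested genes of the CoREST and MiDAC complexes, 3 were higher, 1 was lower and 4 did not pass (median 0.16), against 27.0% higher and 22.7% lower over all genes. Hmg20b rose by 0.88, the CoREST scaffold gene Rcor1 by 0.74 and the MiDAC subunit gene Dnttip1 by 0.71, whereas Rcor3, a paralog of Rcor1, fell by 0.66. Of the NCoR complex, which holds Hdac3, 3 of 4 genes were tested. Gps2 (0.52) and Tbl1x (0.41) were higher and 1 did not pass, and Ncor1 itself had no probe set annotated to it alone and was not analysed here. Among 8 other deacetylases, Sirt7 rose by 1.66 (standard error 0.09), Sirt2 by 0.78 and Sirt4 by 0.49, Sirt1 fell by 0.69, and 4 did not pass, with Hdac11 at -0.36 (adjusted p = 0.182 from limma). The sirtuins use NAD and are not targets of Trichostatin A.

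The kinases and phosphatases that set the phosphorylation of class IIa HDACs mostly had higher levels in Trichostatin A. Of 16 genes 11 were higher, 2 were lower and 3 did not pass, with a median of 0.56. Over all genes 27.0% were higher and 22.7% lower, shares that also stand beside the 14-3-3 and transcription factor counts below. Sik2, a salt-inducible kinase that phosphorylates class IIa HDACs, rose by 1.45 (standard error 0.08), Prkd1, a protein kinase D that does so too, by 1.01 (standard error 0.10), and Prkaca, the catalytic subunit of protein kinase A, which restrains the salt-inducible kinases, by 0.87 (standard error 0.08). The calcium-dependent kinase genes Camk1 (-0.84) and Camk2d (-0.34) were lower. Of 7 genes of 14-3-3 proteins, Ywhag was higher (0.40), Ywhaz (-0.62) and Ywhah (-0.25) were lower and 4 did not pass. Of 7 tested transcription factor partners, Mef2d (0.58) and Mef2a (0.26) were higher, Runx3 (-0.51) was lower and 4 did not pass.

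In LY294002, 5 of the 16 kinase and phosphatase genes were higher, 1 was lower and 10 did not pass (8.85% of all genes were called higher and 2.21% lower), with a median of 0.27. These were Prkacb (0.56), Sik2 (0.55), Prkd3 (0.39), Prkd1 (0.38) and Mark2 (0.36), and Camk2d was lower (-0.38). Of the SIN3 genes, Arid4b (0.73) and Sap30l (0.45) were higher. Rcor3, lower in Trichostatin A, was higher in LY294002 (0.45, adjusted p = 0.0278 from limma), and in the direct comparison it was lower in Trichostatin A by a log2 difference of -1.12 (adjusted p = 9.49e-07 from limma). Mef2d (0.29), Srf (0.50) and the 14-3-3 gene Ywhaq (0.34) also rose, and no gene of the NuRD, NCoR or other deacetylase lists passed. In UO126, Camk2d (-0.41) and Bcl6 (-0.56), a repressor that binds class IIa HDACs, were lower, against 1.02% of all genes, and no other gene of these lists passed. In SB202190 limma called none of them, against 2.70% of all genes.

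**Figure D4:**
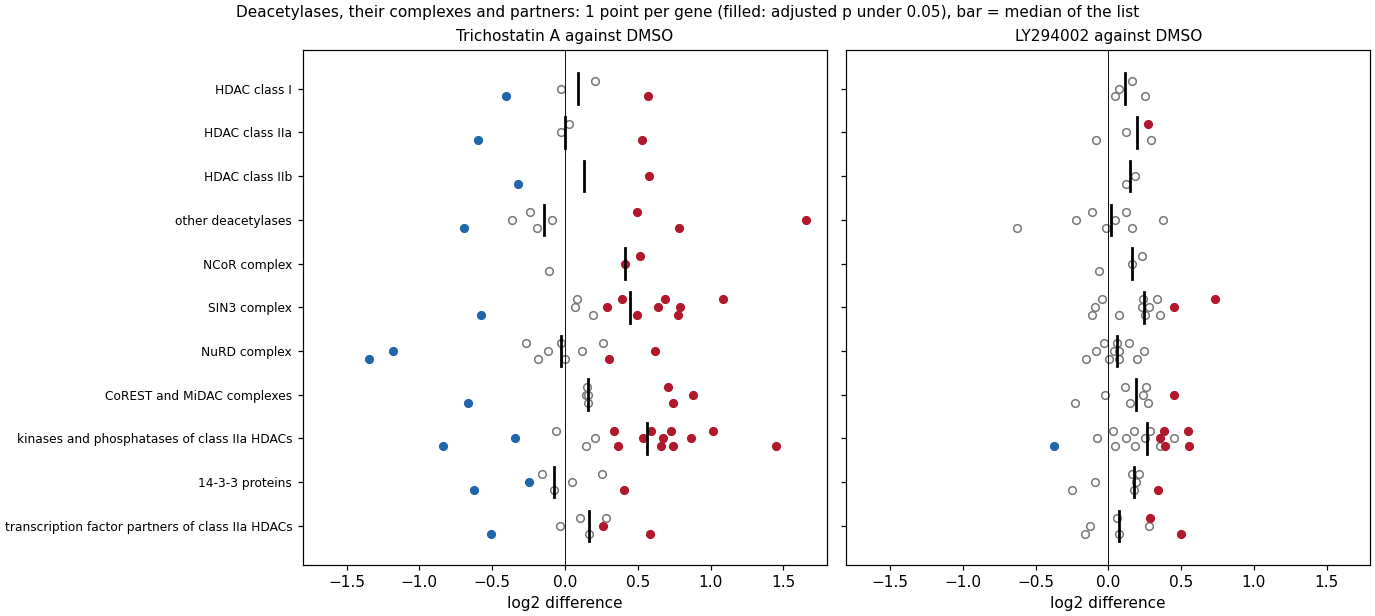
Log2 difference from DMSO (x axis) of each tested gene, grouped by list (y axis), in Trichostatin A and LY294002. Points are genes, filled where the adjusted p was under 0.05, and bars are medians of the lists. The kinases and phosphatases of class IIa HDACs have a median of 0.56 in Trichostatin A and 0.27 in LY294002.

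Marker genes moved with Trichostatin A as well. All 12 chondrocyte markers were lower than in DMSO (median log2 difference -0.93), where 22.7% of all genes were lower, and their summed level was 15.09 to 15.48 in Trichostatin A, against 15.93 to 16.04 in DMSO (log2 of the summed signal). Of 13 tested skeletal muscle markers 12 were lower and 1 did not pass, with a summed level of 10.74 to 10.81 in Trichostatin A, against 11.64 to 12.81 in DMSO. Of 8 fibroblast markers 6 were lower and 1 was higher, with sums of 14.90 to 15.09 in Trichostatin A and 15.46 to 15.72 in DMSO. Of 7 tested macrophage and leukocyte markers 5 were lower, among them Lyz2 (-1.40) and Cd14 (-0.76), and Cd68 was higher (2.22), while their sums overlapped with 10.89 to 10.99 in Trichostatin A and 10.78 to 11.07 in DMSO. The endothelial sums overlapped too, and 4 of 7 endothelial markers, Pecam1, Cdh5, Tie1 and Vwf, had means under the filter in both. Of the 3 endothelial markers tested, Kdr was higher in Trichostatin A (0.30, adjusted p = 0.0302 from limma) and 2 did not pass. In LY294002 the chondrocyte sum was 16.32 on each array and 4 of 12 markers were higher, against 8.85% of all genes. In UO126 it was 16.24 to 16.44 and 3 were higher, against 1.66% of all genes. The part of cell composition in the HDAC differences was not tested. Among 3 tested genes known to rise with HDAC inhibitors, Txnip (2.46), Gsn (0.86) and Cdkn1a (0.44) were all higher in Trichostatin A, against 27.0% of all genes. Txnip was also higher in LY294002 (1.14, adjusted p = 1.74e-05 from limma), where the other 2 did not pass.

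The genes whose levels ran most like those of the class IIa HDACs were found by Pearson r over the 15 arrays among 15824 genes. For Hdac5 they were Satb1 (r = 0.963), Fhl1 (0.944) and Gpcpd1 (0.932), and for Hdac7 they were Vps9d1 (0.967), Ipo9 (0.963) and Psmc3ip (0.960). For Hdac4 (1436758_at) they were Gtpbp1 (0.893), Fstl1 (0.878) and Unkl (0.872), and for Hdac9 (1421306_a_at) Nos3 (0.797), Acot2 (0.728) and Edaradd (0.717). The 15 points share their treatments, and for Hdac5 and Hdac7 the Trichostatin A arrays lie at 1 end of the range. These values are descriptions and carry no test.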

How the data were processed

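RNA of 15 cultures was read on Affymetrix MOE 430 2.0 arrays. Each array's treatment and replicate number come from its label, where LY, TSA and SB90 were read as LY294002, Trichostatin A and SB202190 of the series text. The deposited values are log2 signals already normalized by the authors, and the array medians lay between 6.90 and 7.00. The sources name both GC-RMA and RMA, it stayed unsettled which of them gave this table, and the genome build is not given in the sources used here. The precision is limited by the number of arrays. The 64 array controls among the 45101 probe sets were left out.

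The fit was made with limma 3.58.1 (R 4.3.3) with a mean for each treatment, 10 residual degrees of freedom, empirical Bayes moderation and Benjamini-Hochberg adjustment, over probe sets with a mean signal of 50 or more in either compared treatment. There were 7 comparisons. The brightest probe set stood for a gene. Every HDAC probe set is reported, and of each list up to 3 called genes with the largest change in Trichostatin A are named. Further genes behind small counts were named after their values were seen. The members and lists were chosen with earlier results of these data known. A gene of these lists is not reported here.

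Deviations of same-numbered arrays from their treatment means correlated at 0.748, 0.367 and 0.590 for LY294002 and DMSO, 0.695, 0.509 and 0.295 for UO126 and DMSO, and 0.224, 0.278 and 0.302 for SB202190 and DMSO. They were all over 0.1 for Trichostatin A with UO126 and with SB202190 too, and there the numbers were taken to pair the arrays. Alternatives were a replicate block, a fit on the compared treatments only, a signal filter of 100 or none, quantile normalization, median centring, a robust prior with a trend, averaging the probe sets of a gene, and dropping each array. Fits without 1 replicate number in every treatment and without the Trichostatin A arrays were added after the data were seen. The code was tested on simulated data. Promoter windows, 250 bases before the start, are from RefSeq (GRCm38.p6).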

Additional observations from a re-analysis of the deposited data

Results flagged for a closer look

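A signal appeared in a probe set that the comparisons left out. Hdac9 probe set 1434572_at was below the filter on low signals in every treatment. Without the filter it was higher in Trichostatin A than in DMSO by 0.81 on the log2 scale (adjusted p = 7.63e-04 from limma), with all 3 Trichostatin A arrays above all 3 DMSO arrays. The group means of 5.42 in Trichostatin A and 4.60 in DMSO were both under 5.64, and the brighter Hdac9 probe set, 1421306_a_at, differed by -0.03.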

How the results depend on the processing

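In Trichostatin A against DMSO the number of HDAC probe sets called was 6 to 7 of 15 when single arrays were left out and 10, 5 higher and 5 lower, with the replicate block. Same-numbered arrays of these groups correlated at 0.238, 0.451 and 0.0288, and not every array correlated best with its own number, so the block only describes. For the comparisons with Trichostatin A, the share of all probe sets called under each alternative is not given here. The HDAC counts under these alternatives therefore do not set the HDACs apart from the array. Calls were fewer and less stable for the kinase inhibitors. Against DMSO, LY294002 had 2 calls, which became 0 with the arrays of the 2 groups alone, 1 after quantile normalization and 0 without replicate number 1, 2 or 3 of every treatment. Leaving out single arrays gave 0 to 4, with 4 when DMSO replicate 1 was dropped, 1 for LY294002 replicate 3, and 0 for LY294002 replicate 1 and for replicates 2 and 3 of DMSO. Calls over all probe sets moved as well, with 15.0% without DMSO replicate 1, between 3.73% and 4.10% in the single-array fits with 0 HDAC calls, 2.01% with the 2 groups alone and 0.516% without replicate number 2, against 8.62%. UO126 had 1 call, which became 0 with the 2 groups alone and without any replicate number of every treatment, and 0 to 1 without single arrays. SB202190 had 0 calls, and 1 with the replicate block or quantile normalization, where 5.52% and 3.72% of all probe sets were called, against 1.94%. Trichostatin A had 6 to 10 calls against LY294002, 5 to 6 against UO126 and 7 to 8 against SB202190 without single arrays, and 10, 6 and 8 with the replicate block, which changed no other HDAC call among the paired comparisons than that of Hdac6 in SB202190. Hdac9 in Trichostatin A against DMSO changed sign, to 0.39 (adjusted p = 0.00715 from limma), when the mean of both probe sets was taken, of which 1 lay below the filter. Of 31 called single values, tried 777 times, 719 kept the call and 58 lost it, and 20 were called in every alternative. Of the values not called, 28 became called and 87 changed sign without passing on either side. The causes of these changes were not tested, and the fits with arrays left out also had fewer arrays.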
